A study of Mus musculus with 17 samples.

Results

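The 3 immunoglobulin loci of the mouse, Igh, Igk and Igl, were examined by ATAC-seq together with their flanks. ATAC-seq cuts open chromatin with a transposase, so that reads collect where chromatin is accessible. Members were all regions of the deposited table that overlapped chr12:114000000-117750000 (Igh), chr6:67000000-71200000 (Igk) or chr16:18500000-19800000 (Igl) in mm9, which gave 358 of 66177 regions, or 0.541%. Igh held 124 of them, Igk 175 and Igl 59. Their median width was 442 bp, and that of all regions was 510 bp.

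Mice were aged 8 to 12 weeks when experiments began. Lymph nodes gave naive B cells (nB; B220+ GL7- Fas-) and germinal center B cells (GCB; B220+ GL7+ Fas+ PE+), and marrow gave plasma cells (BMPC), gated by CD138. nB came from unimmunized mice, and GCB and BMPC were taken 30 days after immunization with phycoerythrin in complete Freund's adjuvant (PE-CFA). All mice were Dnmt3a fl/fl and Dnmt3b fl/fl. Dnmt3-deficient mice (KO) carried Cre on 1 allele and their Dnmt3-sufficient littermates (C) did not, so that the controls carried the floxed alleles without Cre. The strain was given as B6;129S4-Dnmt3atm3.1Enl Dnmt3btm5.1Enl/Mmnc. Cre acted in the B lineage from an early bone marrow stage, thus other cells keep both enzymes. There were 3 nB_C, 2 nB_KO, 2 GCB_C, 4 GCB_KO, 3 BMPC_C and 2 BMPC_KO libraries, each from 3000 to 5000 cells, and GCB libraries were pools of 2 mice. All nB libraries were male, all BMPC libraries were female and GCB libraries were of both sexes, so that sex and cell type cannot be told apart between nB and BMPC. A further BMPC_KO sample named in the labels was not analysed here.

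Values are given in RPPM as the authors deposited them, that is, the reads of a region scaled to a common total of reads within regions in every library. Reads in regions numbered 4104875 to 6079018 in nB, 907959 to 2280954 in GCB and 5357687 to 8232313 in BMPC. A floor of 3 reads was worth 0.364 to 0.731 RPPM in nB and BMPC libraries and 1.32 to 3.30 RPPM in GCB libraries, thus low values are least certain in GCB. Floors cover counting error only. In sorted bulk cells, fewer cells with an open region and less opening per cell cannot be told apart.

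Cell type labels were checked at marker genes, each read at its region nearest the start. The region of Pax5, the factor that maintains B cell identity, averaged 40.3 RPPM in nB_C, 24.3 in GCB_C and 2.84 in BMPC_C, and was called lower in BMPC_C than in nB_C. The region of Ms4a1, which encodes CD20, averaged 80.2, 85.7 and 13.4 RPPM. Tnfrsf17, which encodes the plasma cell survival receptor BCMA, averaged 0.392 RPPM in nB_C and 1.35 in GCB_C and lay between 18.4 and 22.6 in BMPC_C. Other markers were less specific: Prdm1, Xbp1, Sdc1 and Irf4 changed less than 2-fold between nB_C and BMPC_C, and Igj had no region. Of 4 T cell markers, Cd3g and Cd8a had no region, Cd3e averaged 3.02, 0.660 and 0.538 RPPM, and a region far from the start of Cd4 averaged 0.867, 11.3 and 15.9 RPPM, which put the summed T cell list between 3.35 and 4.90 RPPM in nB_C, at 12.8 and 11.2 in GCB_C and between 14.6 and 19.2 in BMPC_C. The 4 of 5 myeloid markers with a region summed to 18.0 to 21.0 RPPM in nB_C, 14.5 and 10.8 in GCB_C and 9.12 to 14.0 in BMPC_C, and Lyz2 had no region. The 2 of 3 erythroid markers with a region, most abundantly Klf1, summed to 48.6 to 63.8 RPPM in nB_C, 29.0 and 38.4 in GCB_C and 56.9 to 67.1 in BMPC_C, and Gata1 had no region. Klf1 averaged 49.5, 32.6 and 61.5 RPPM and was not called. Hbb-b1, a globin gene, averaged 8.79, 1.13 and 0.451 RPPM and ranged from 0.186 to 13.8 within nB_C. It was called lower in BMPC_C than in nB_C. The part of other cells in the results was not tested.

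Each immunoglobulin chain is assembled from gene segments. In developing B cells the RAG recombinase joins a variable (V) segment to a joining (J) segment, with a diversity (D) segment between them in the heavy chain, at recombination signal sequences, and the sequence between the joined segments is deleted or inverted. After activation, class switching joins repeat-rich switch regions and deletes the constant genes between them, so that Ighm, which encodes IgM, is replaced by a downstream gene. Transcription is driven by V promoters, in which an octamer binds Oct factors, and by enhancers: in Igh within the intron between J and Ighm and in the region 3′ of the last constant gene, in Igk within the J-C intron and 3′ of Igkc, and in Igl beside the constant genes. A lower value may therefore come from closing of chromatin or from loss of the DNA in part of the cells, and these cannot be told apart in the table. V segments are members of families of similar sequence, so that their reads may map poorly or be split between copies.

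The sequences that carry the main results are given first, from the mm9 genome. In the heavy chain, the switch repeat of the intron between J and Ighm (chr12:114662534-114662653, minus strand) is shown with its pentamers GAGCT and GGGGT in capitals, because this region fell most from nB to GCB of all named regions. The neighboring region on the J side (chr12:114665628-114665887, minus strand) was not called between cell types, and its capitals mark CACCTG and CAGCTG, the E-boxes bound by E proteins, the composite GGAANNGAA, at which an ETS factor and an IRF can pair, and the octamer ATGCAAAT read on the opposite strand.
Switch repeat: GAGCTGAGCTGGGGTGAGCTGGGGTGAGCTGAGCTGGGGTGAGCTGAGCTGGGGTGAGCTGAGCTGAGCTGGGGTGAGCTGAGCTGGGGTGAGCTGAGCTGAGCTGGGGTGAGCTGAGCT
J side of the intron: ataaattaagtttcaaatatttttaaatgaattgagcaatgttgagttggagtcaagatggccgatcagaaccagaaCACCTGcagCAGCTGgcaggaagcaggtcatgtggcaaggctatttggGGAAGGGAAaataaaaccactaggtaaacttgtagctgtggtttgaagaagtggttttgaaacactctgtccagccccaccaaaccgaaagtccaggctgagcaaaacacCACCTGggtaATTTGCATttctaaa

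Regions with their highest values in BMPC follow. In the interval between Tmem121 and Ighe, which holds the 3′ enhancers of Igh, a pair of inverted copies (chr12:114470543-114470692, plus strand, and chr12:114492114-114492263, minus strand) are shown with E-boxes in capitals. The J-C intron of Igk (chr6:70675673-70675832, plus strand) is shown with GGGACTTTC, the kappa B site for which NF-kappaB was named, and an E-box in capitals.
Tmem121-side copy: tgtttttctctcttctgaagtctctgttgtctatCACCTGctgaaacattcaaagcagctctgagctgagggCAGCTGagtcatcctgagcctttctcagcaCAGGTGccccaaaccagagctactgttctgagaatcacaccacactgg
Ighe-side copy: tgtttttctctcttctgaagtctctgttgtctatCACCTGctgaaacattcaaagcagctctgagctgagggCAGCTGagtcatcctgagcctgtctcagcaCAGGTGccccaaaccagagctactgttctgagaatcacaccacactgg
Igk J-C intron: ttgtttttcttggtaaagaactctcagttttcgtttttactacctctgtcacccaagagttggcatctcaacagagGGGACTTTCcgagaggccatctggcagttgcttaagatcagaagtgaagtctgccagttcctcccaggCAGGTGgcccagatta

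In Igl, a pair of copies in the same orientation (chr16:19027336-19027435 and chr16:19179460-19179559, minus strand) are shown with GGAANNGAA in capitals, because 1 copy rose in BMPC and the other did not. Among Igk V segments, the stretch around the octamer downstream of Igkv4-57 (chr6:69525814-69525861, plus strand) and the one upstream of Igkv12-44 (chr6:69765167-69765214, plus strand) are shown with the octamer in capitals. The signal sequences of Igkv4-57 (chr6:69525941-69525968), Igkv4-50 (chr6:69650733-69650760) and Igkv19-93 (chr6:68686263-68686290), all on the minus strand, are shown with the heptamer CACAGTG and the nonamer ACAAAAACC in capitals, with a spacer of 12 bp between them.
Igl Hira-side copy: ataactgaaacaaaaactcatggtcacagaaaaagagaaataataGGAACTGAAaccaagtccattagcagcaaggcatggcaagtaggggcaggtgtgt
Igl middle copy: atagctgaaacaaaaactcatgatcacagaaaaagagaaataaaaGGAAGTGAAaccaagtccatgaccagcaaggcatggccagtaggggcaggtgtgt
Octamer downstream of Igkv4-57: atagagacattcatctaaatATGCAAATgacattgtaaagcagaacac
Octamer upstream of Igkv12-44: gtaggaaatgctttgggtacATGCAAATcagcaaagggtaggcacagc
Igkv4-57 signal: CACAGTGctatagactggaACAAAAACC
Igkv4-50 signal: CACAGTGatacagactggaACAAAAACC
Igkv19-93 signal: CACAGTGatacaaatcataACAAAAACC

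All motifs were searched on both strands, and GAGCT and CAGCTG can share bases. Shares of regions with a motif were counted in the central 300 bp of each region, so that windows were of the same length, and a match outside that window, as in some of the sequences above, was not counted. Of 65891 regions on assembled chromosomes, 3.96% held ATGCAAAT in this window, 8.84% CACAGTG, 0.739% ACAAAAACC, 20.6% CAGCTG, 26.8% CACCTG, 0.669% GGGACTTTC, 11.6% GGAANNGAA, 52.8% GAGCT and 45.1% GGGGT. A match is a description of the sequence and does not show that a factor was bound.

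From nB_C to BMPC_C, 84 of 122 regions of the Igk V block were lower and 4 higher, and 16 of 27 regions of the Igh V block were lower and none higher, against 20.1% of all regions lower and 18% higher. Regions near the constant genes and enhancers split between higher and lower values. Regions were called by limma on log2(RPPM + 1) at a Benjamini-Hochberg adjusted p of at most 0.01 over all 66177 regions and at least a 2-fold change, and log2 fold changes below are on that scale, which understates changes of low regions. With a pseudocount of 5 RPPM, the calls from nB_C to BMPC_C among all members fell from 194 to 79. Each nB and BMPC library came from a separate mouse and each GCB library from a separate pool of mice. The limma p-values rest on the spread between libraries within groups, estimated over all 6 groups together. That spread includes counting error, which is largest in GCB, and is not specific to the groups compared.

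From nB_C to GCB_C, 33 of the 358 members were higher and 67 were lower, while 14.2% of all regions were higher and 8.47% lower. By locus, 17 were higher and 20 lower at Igh, 12 and 24 at Igk, and 4 and 23 at Igl. From nB_C to BMPC_C, 34 members were higher and 160 lower, against 18% and 20.1% of all regions. This comprised 15 higher and 36 lower at Igh, 11 and 96 at Igk, and 8 and 28 at Igl. From GCB_C to BMPC_C, 31 were higher and 105 lower, against 11.3% and 19.1% of all regions. The counts rest in part on single libraries: without GCB_C replicate 2 the nB to GCB calls fell from 37 to 24 at Igh and from 36 to 18 at Igk, and without GCB_C replicate 1 the GCB to BMPC calls at Igk fell from 76 to 47. Leaving out a library of nB_KO, GCB_C or BMPC_KO leaves a single library in that group, so that the spread then comes from the other groups. These comparisons share samples, and their values are given side by side without being compared.

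**Figure D1:**
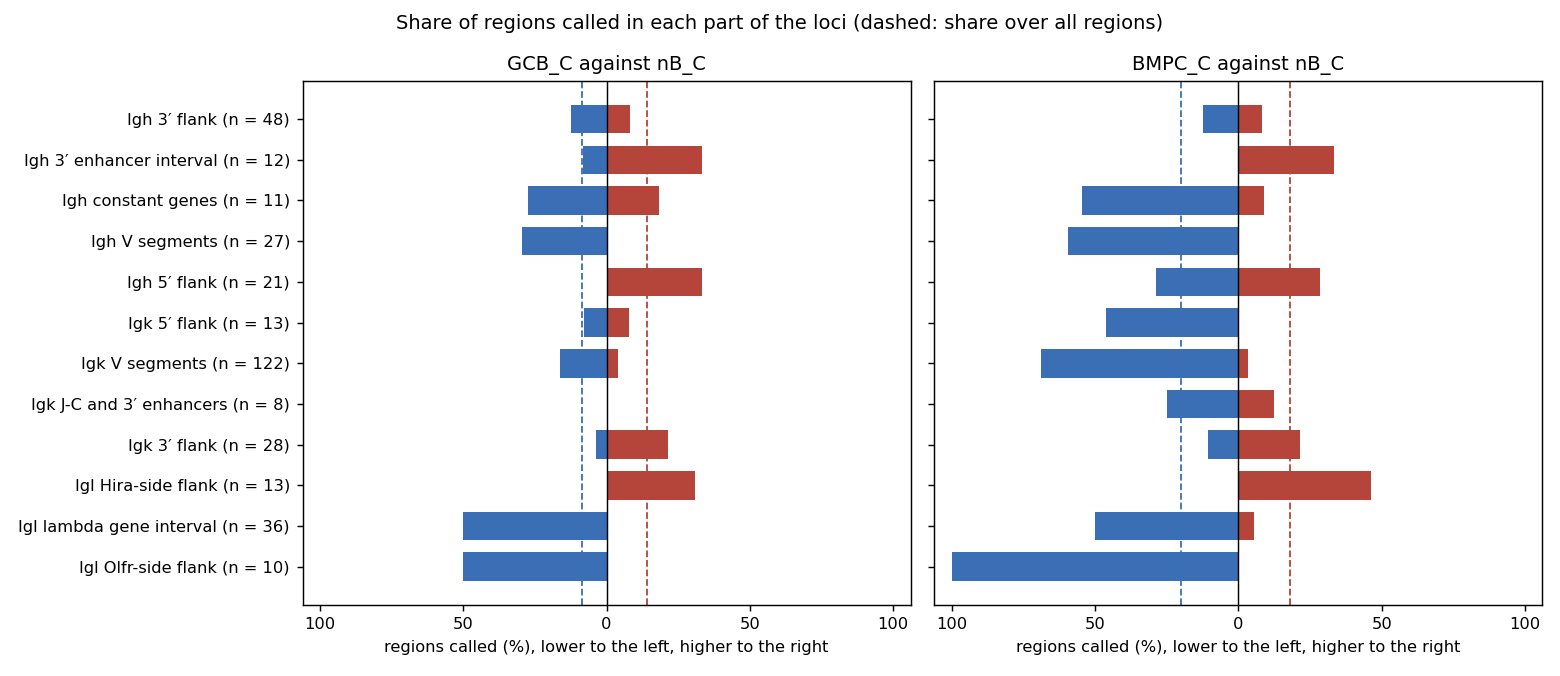
Share of regions called lower (blue, left) and higher (red, right) in GCB_C or BMPC_C against nB_C in the parts of each locus with at least 8 regions, in percent of the regions of that part. Dashed lines give the share over all 66177 regions; the bar for Igk V segments in BMPC_C reaches 68.9% lower, and all 10 regions of the Igl flank beyond the lambda genes were lower.

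The switch repeat in the Igh intron had the highest RPPM of the heavy chain gene interval in nB_C. The region chr12:114662533-114663461 (929 bp) lies 1592 bp from Ighm and overlaps exons of the annotated transcripts AC073553.1, AC073553.2 and AC073553.3. It held 128 GAGCT and 35 GGGGT, or 175.5 pentamers per kb, the densest of 65891 regions, in which the median was 4.65 per kb. Its accessibility was 123, 87.6 and 95.1 RPPM in nB_C and 108 and 89.9 in nB_KO. It was 3.52 and 10.8 RPPM in GCB_C and 19.8, 5.09, 12.7 and 17.5 in GCB_KO. It was 30.2, 16.4 and 30.2 RPPM in BMPC_C and 42.8 and 63.5 in BMPC_KO. Every nB library lay above every GCB and BMPC library. The log2 fold change was -3.80 (SE 0.36, limma adjusted p = 2.6e-09) from nB_C to GCB_C and -1.99 (adjusted p = 6.2e-06) from nB_C to BMPC_C. From GCB_C to BMPC_C it was 1.82 (adjusted p = 0.00012), and without GCB_C replicate 1 it was 1.13 and no longer called. The region lies in sequence that class switching can delete and is made of repeats.

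About 2 kb further toward the J segments, chr12:114665501-114666077 (577 bp), at the place of the intron enhancer, which drives heavy chain transcription, was not called between cell types in C or in KO. It measured 41.4, 40.5 and 43.4 RPPM in nB_C, 33.4 and 39.3 in GCB_C and 32.9, 37.8 and 34.3 in BMPC_C. The log2 fold change was -0.20 (SE 0.15, adjusted p = 0.28) to GCB_C and -0.25 (SE 0.13, adjusted p = 0.10) to BMPC_C, although both GCB_C and all BMPC_C libraries lay below the nB_C libraries. In KO it measured 45.9 and 42.3 RPPM in nB, 26.4, 25.5, 32.0 and 23.8 in GCB and 30.2 and 35.8 in BMPC, and the log2 fold change from nB_KO was -0.70 (SE 0.14, adjusted p = 0.00015) to GCB_KO and -0.41 (SE 0.16, adjusted p = 0.034) to BMPC_KO, less than the 2-fold needed for a call. Per length, the switch repeat stood at 110 RPPM per kb and the J-side region at 72.4 in nB_C, and at 7.69 and 63.1 in GCB_C. Thus the order of these neighbors differed between nB_C and GCB_C.

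On the other side of Ighm, regions between the constant genes fell in different cell types. Both regions next to the 3′ end of Ighm were low in GCB: chr12:114657424-114657700 measured 17.8, 9.98 and 13.0 RPPM in nB_C, 1.32 and 0.937 in GCB_C and 6.63, 6.75 and 10.4 in BMPC_C. Its log2 fold change was -2.75 (SE 0.35, adjusted p = 3.7e-07) to GCB_C and -0.70 (adjusted p = 0.057) to BMPC_C. Its neighbor chr12:114658362-114658743 averaged 13.8, 2.30 and 9.77 RPPM, with a log2 fold change of -2.18 (adjusted p = 3.2e-05) to GCB_C. Farther downstream, chr12:114643520-114643699 measured 9.01, 5.27 and 5.96 RPPM in nB_C and 0.440 and 0 in GCB_C, which is 1 read in both libraries together. In BMPC_C it measured 0.130, 0 and 0.156 RPPM, and it was called lower in both. It lies between Gm17421 and Gm11029, and so few reads give no useful fold.

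Between Ighg2b (at the place annotated Ighg) and Ighg1, which encode IgG heavy chains, regions had similar levels in nB_C and GCB_C and fell in BMPC. At chr12:114559107-114559775 the values were 16.6, 14.5 and 17.5 RPPM in nB_C, 11.4 and 17.8 in GCB_C and 1.30, 1.46 and 0.623 in BMPC_C. BMPC_C did not overlap the other groups, and the log2 fold change from nB_C was -3.03 (SE 0.25, adjusted p = 5.9e-11). At chr12:114552791-114553313 means were 14.7, 15.2 and 3.12 RPPM, with a log2 fold change of -1.98 (adjusted p = 9.3e-07). In nB_KO, GCB_KO and BMPC_KO, means were 15.8, 9.12 and 1.05 RPPM at the former and 17.4, 13.4 and 6.82 at the latter, with a log2 fold change from nB_KO to GCB_KO of -0.75 (adjusted p = 0.022) and -0.36 (adjusted p = 0.34), neither called. Between Ighg3 (at the place annotated AI324046) and Ighm, chr12:114604637-114605049 averaged 9.08, 4.39 and 1.47 RPPM and chr12:114600532-114601068 averaged 7.85, 3.22 and 2.45. Both were called lower in BMPC_C, the latter with a log2 fold change of -1.40 that was no longer called without nB_C replicate 3 or without BMPC_C replicate 2. The region chr12:114515981-114516384, between Ighe and Ighg2c, went the other way and was higher in GCB_C, at 10.6 and 8.43 RPPM against 0.974, 1.51 and 1.12 in nB_C and 3.25, 0.182 and 1.25 in BMPC_C, with a log2 fold change of 2.25 (adjusted p = 3.4e-05, SE 0.39) from nB_C to GCB_C. In the block of constant genes from Ighe to Ighm, which leaves out Igha, 2 of 11 regions were higher and 3 lower in GCB_C than in nB_C, and 1 was higher and 6 lower in BMPC_C. Of all regions, 14.2% were higher and 8.47% lower in GCB_C, and 18% and 20.1% in BMPC_C. The summed level of the 11 regions averaged 86.7 ± 5.6 RPPM in nB_C (SD, n = 3), 56.2 ± 19.8 in GCB_C (n = 2) and 32.3 ± 8.9 in BMPC_C (n = 3).

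The interval between Tmem121 and Ighe holds Igha and the 3′ regulatory region, a group of enhancers that acts on switching and on heavy chain output of plasma cells. Of its 12 regions, 4 were higher and 1 lower in GCB_C than in nB_C, and 4 were higher and none lower in BMPC_C, with a median log2 fold change of 0.33 and 0.11, against 0.050 and 0.027 over all regions. Of all regions, 14.2% were higher and 8.47% lower in GCB_C, and 18% and 20.1% in BMPC_C. The summed level averaged 230.2 ± 22.0 RPPM in nB_C, 265.1 ± 16.6 in GCB_C and 345.4 ± 27.1 in BMPC_C. The copies shown above, chr12:114470303-114470926 and chr12:114491937-114492509, are inverted relative to each other and identical at 98.8% of 566 aligned positions, so that reads may be split between them. The Tmem121-side copy measured 5.12, 3.77 and 5.77 RPPM in nB_C, 13.2 and 18.3 in GCB_C and 35.0, 33.9 and 31.8 in BMPC_C. No libraries of the 3 cell types overlapped, with a log2 fold change of 1.51 (adjusted p = 4.5e-06, SE 0.22) to GCB_C and 2.57 (SE 0.20, adjusted p = 1.5e-11) to BMPC_C. The Ighe-side copy averaged 4.99, 11.1 and 28.0 RPPM, with a log2 fold change of 1.03 and 2.29. The first of these was no longer called without nB_C replicate 3 or GCB_C replicate 2, at 0.89 and 0.96.

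A second inverted pair, chr12:114479255-114479697 and chr12:114488439-114488812, was highest in GCB. These are identical at 79.4% of 315 aligned positions. The first measured 5.85, 3.58 and 5.21 RPPM in nB_C, 22.9 and 30.0 in GCB_C and 4.55, 6.57 and 7.47 in BMPC_C, and 14.3, 29.3, 22.8 and 24.5 in GCB_KO. All 6 GCB libraries lay above all others, and the log2 fold change was 2.23 (SE 0.27, adjusted p = 1.7e-07) from nB_C to GCB_C and -1.94 (adjusted p = 8.9e-07) from GCB_C to BMPC_C. The second averaged 4.91, 12.6 and 4.72 RPPM. Its log2 fold change of 1.17 to GCB_C was not called without GCB_C replicate 2, nB_C replicate 1 or nB_C replicate 2, the lowest value being 0.85.

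Nearest to Ighe, a pair of neighboring regions rose in BMPC. Igha, the IgA constant gene, lies between Tmem121 and Ighe in RefSeq (GRCm38.p6) but was not placed in mm9 here, so that whether these regions lie at Igha or at an enhancer cannot be told. chr12:114496518-114497112 was near the floor in nB and GCB, at 1.71, 0.942 and 0.558 RPPM in nB_C and 1.32 and 1.41 in GCB_C, and measured 16.1, 26.5 and 26.5 in BMPC_C. This was the largest increase in the heavy chain gene interval, with a log2 fold change of 3.54 (adjusted p = 2.1e-10, SE 0.32). chr12:114495261-114496314 measured 14.4, 15.1 and 10.8 RPPM in nB_C, 7.48 and 4.22 in GCB_C and 33.8, 46.0 and 46.9 in BMPC_C, and thus was lowest in the 2 GCB_C libraries. In KO the groups overlapped: GCB_KO measured 22.0, 11.5, 8.77 and 9.79 RPPM and nB_KO 15.1 and 11.2, with a log2 fold change of -0.09 (adjusted p = 0.79). Its log2 fold change was 1.58 (adjusted p = 3.2e-06) to BMPC_C and -1.10 (adjusted p = 0.0018) to GCB_C, the latter not called without GCB_C replicate 2 or nB_C replicate 2. In BMPC_KO it measured 25.0 and 27.6 RPPM, below all BMPC_C libraries, with a log2 fold change of -0.65 (adjusted p = 0.39) against BMPC_C. In contrast, the regions with the highest level, chr12:114460201-114461399 and chr12:114466100-114467229, averaged 73.3, 66.1 and 68.7 RPPM and 64.2, 53.2 and 57.9 RPPM and were not called. The motif CACCTG was in the central 300 bp of 9 of the 12 regions, or 75.0%, against 26.8% of all regions. The 12 include the inverted pairs of copies, with each copy counted. In other parts of the loci the share ranged from 14.3% of 21 regions in the Igh 5′ flank to 75.0% of 4 regions between Igk V and J.

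**Figure D2:**
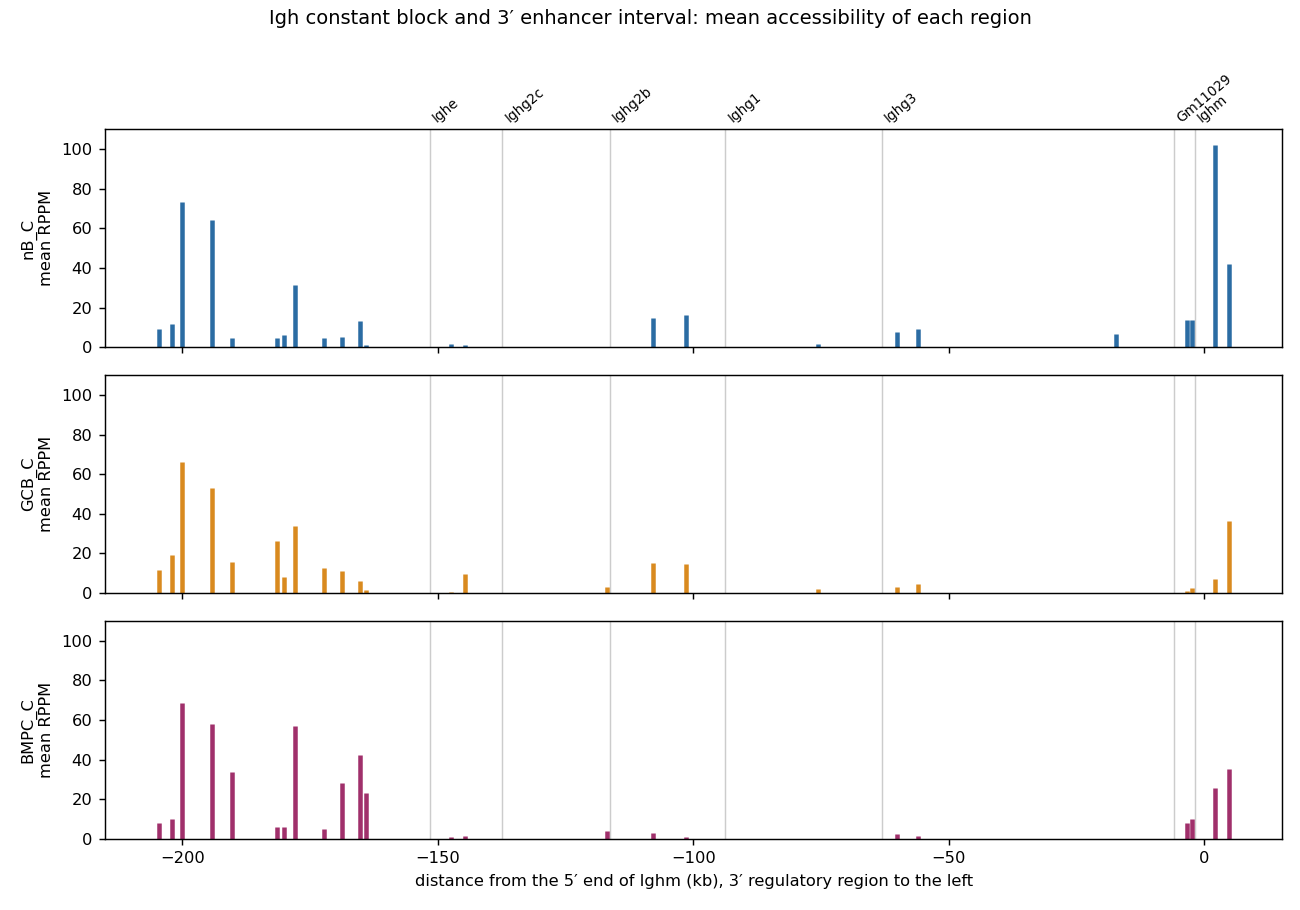
Mean RPPM of each region in nB_C, GCB_C and BMPC_C across the Igh constant genes and the 3′ enhancer interval, by distance from the 5′ end of Ighm in kb, with gray lines at annotated genes. The switch repeat just right of Ighm stands at 102 RPPM in nB_C and 7.15 in GCB_C, while the tallest pair of bars at the left, in the 3′ enhancer interval, differ little between cell types.

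Heavy chain V segments had few regions, and 16 of 27 fell in BMPC. The V block spans 2426.2 kb with 113 annotated V genes, yet it held 27 regions, and 8 V genes had a region within 500 bp. None were higher in GCB_C or BMPC_C than in nB_C, 8 were lower in GCB_C and 16 in BMPC_C. Of all regions, 14.2% and 18% were higher and 8.47% and 20.1% lower. The summed level averaged 111.7 ± 4.7 RPPM in nB_C, 36.6 ± 1.9 in GCB_C and 23.9 ± 8.5 in BMPC_C. The region with the highest nB_C level was chr12:116403602-116404255 at the 3′ end of Ighv8-6, with 21.0, 13.8 and 16.4 RPPM in nB_C, 2.20 and 1.87 in GCB_C and 1.30, 1.28 and 0.467 in BMPC_C. Its log2 fold change was -2.55 (SE 0.35, adjusted p = 1.3e-06) to GCB_C and -3.17 (SE 0.31, adjusted p = 1.3e-09) to BMPC_C. The region chr12:116169274-116169778 beside Ighv1-42 averaged 10.7, 2.04 and 0.0867 RPPM and was also called lower in both. Of the 27 regions, 18 lay at 1.5 to 2.0 Mb from Ighm, and 14 of the 16 calls in BMPC_C came from these. The median nB_C level was 3.1 RPPM in that stretch and at most 1.71 in the other distance bins, where a fall is harder to call. The 3 regions of the J and D segments summed to 6.6, 4.7 and 5.2 RPPM.

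The Igk V block carried the most regions of all blocks, and 84 of 122 fell in BMPC. Its 122 regions lie over 3148.5 kb with 102 annotated V genes, of which 49 had a region within 500 bp. From nB_C to BMPC_C, 84 regions were lower and 4 higher, and from GCB_C to BMPC_C 55 were lower and 2 higher, whereas from nB_C to GCB_C 20 were lower and 5 higher. Of all regions, 20.1%, 19.1% and 8.47% were lower and 18%, 11.3% and 14.2% higher in these comparisons. The median log2 fold change was -1.60 from nB_C to BMPC_C and -0.69 to GCB_C. The median region had 3.91 RPPM in nB_C, 2.83 in GCB_C and 0.494 in BMPC_C. At least 2 RPPM was found in 104 of 122 regions in nB_C, 79 in GCB_C and 23 in BMPC_C, and under 0.5 RPPM in 1, 9 and 63. The summed level was 630.2, 644.3 and 582.2 RPPM in nB_C, 444.2 and 305.9 in GCB_C and 157.9, 142.3 and 146.5 in BMPC_C, with 235.4 and 218.0 in BMPC_KO. The 2 GCB_C libraries thus differed by more than any other pair within C, and GCB_KO libraries lay between 431.8 and 471.6 RPPM.

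**Figure D3:**
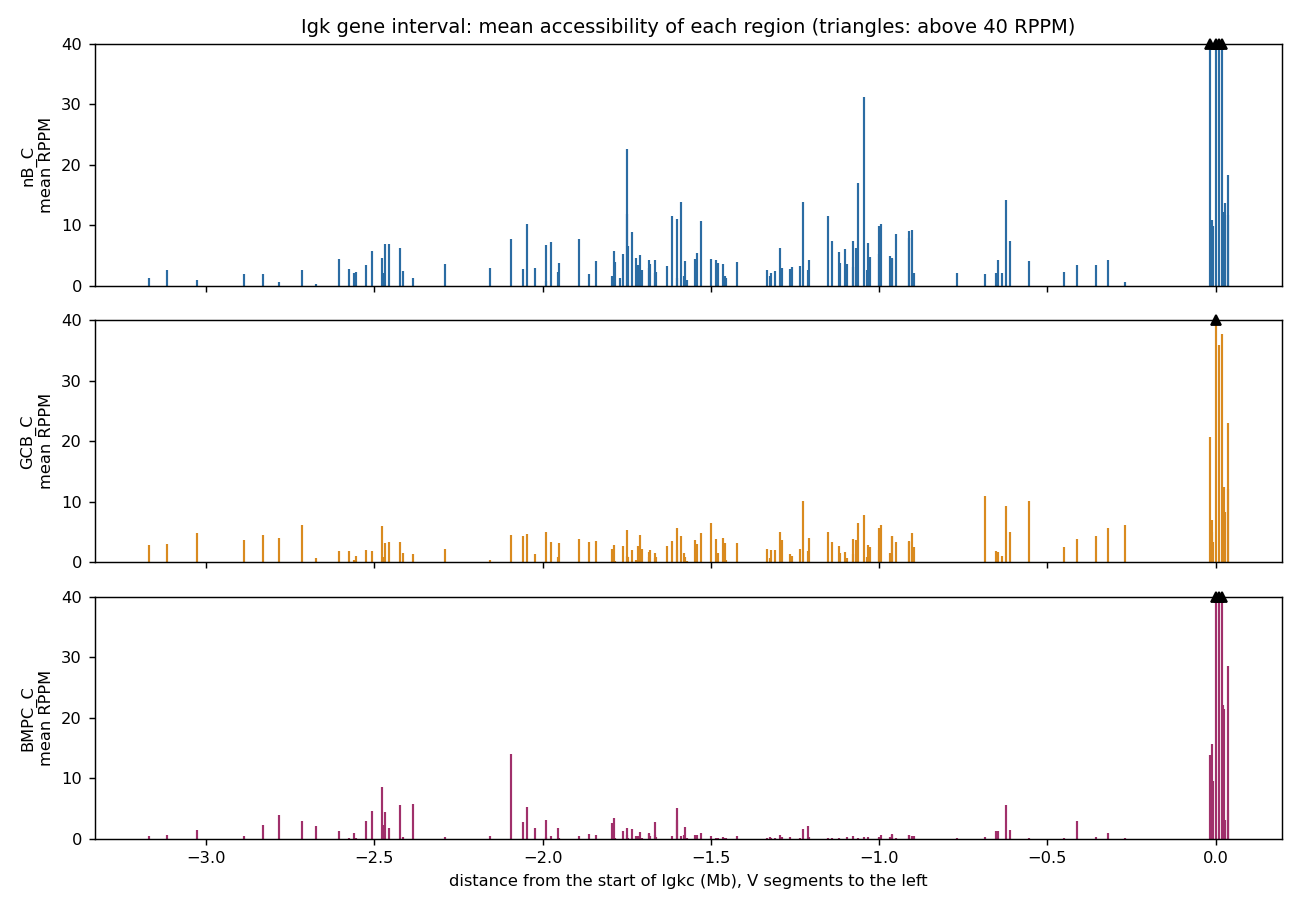
Mean RPPM of each region of the Igk gene interval in nB_C, GCB_C and BMPC_C by distance from the start of Igkc in Mb, with V segments to the left; triangles mark regions above 40 RPPM. Between 0.5 and 1.5 Mb from Igkc most bars of nB_C almost vanish in BMPC_C, whereas bars near Igkc and some beyond 2.0 Mb remain.

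The losses are given along the block by distance from Igkc. At 0.5 to 1.0 Mb 17 of 18 regions were lower in BMPC_C than in nB_C, and at 1.0 to 1.5 Mb 32 of 34. At 1.5 to 2.0 Mb it was 25 of 38, at 2.0 to 2.5 Mb 4 of 13, at 2.5 to 3.0 Mb 3 of 11 and at 3.0 to 3.5 Mb 0 of 3, whereas nearest Igkc, within 0.5 Mb, 3 of 5 were lower. The median level fell from 3.91 RPPM in nB_C to 0.195 in BMPC_C at 1.0 to 1.5 Mb, and was 3.71 and 2.85 RPPM at 2.0 to 2.5 Mb. The farther bins hold few regions, and the bins were chosen after the values were seen. Joining of V to J by deletion removes the V segments in between, and the share of deleted DNA in each cell type was not measured here.

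The largest fall from nB_C to BMPC_C at Igk was at chr6:69631061-69631849, an intergenic region between Igkv4-53 and Igkv4-50. It measured 31.9, 34.7 and 27.2 RPPM in nB_C, 10.1 and 5.62 in GCB_C and 0.780, 0 and 0.156 in BMPC_C. The cell types did not overlap, but no overlap with nB_C was a condition for naming the largest changes. The log2 fold change was -4.66 (SE 0.27, limma adjusted p = 3.1e-14) to BMPC_C and -1.90 (SE 0.30, limma adjusted p = 9e-06) to GCB_C. It is 85.6% identical over 542 positions to chr6:69525691-69526201 at the 3′ end of Igkv4-57. That region measured 11.4, 12.4 and 11.0 RPPM in nB_C and 0.260, 0 and 0.311 in BMPC_C, with a log2 fold change of -3.41 (adjusted p = 2.4e-10). In the large Igkv4 family, 19 of 21 regions were lower in BMPC_C than in nB_C, and in other families 17 of 35. All 21 lay within chr6:68940542-69650974, a stretch in which a larger share of regions fell than beyond 2.0 Mb from Igkc. Family and position thus cannot be told apart. GCB did not always lie between the other cell types: chr6:69990863-69991285, between Igkv1-35 and Igkv7-33, was highest in GCB, at 11.0 and 10.8 RPPM against 2.19, 1.70 and 2.05 in nB_C and 0.390, 0.182 and 0.156 in BMPC_C. Its log2 fold change was 2.00 (SE 0.31, adjusted p = 7.9e-06) to GCB_C and -1.26 (SE 0.28, adjusted p = 0.00031) from nB_C to BMPC_C, both called. A region near Igkv6-13, chr6:70408016-70408194, averaged 0.637, 6.15 and 0.191 RPPM, with a log2 fold change of 2.13 (adjusted p = 2.8e-05) to GCB_C.

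Regions at the 2 ends of V genes were set apart, a split chosen after the values were seen. The 5′ end holds the promoter and the 3′ end the recombination signal. Of 22 regions at the 5′ end, 9 were lower and none higher in BMPC_C than in nB_C, with a median log2 fold change of -1.005. Of 34 at the 3′ end, 27 were lower and 1 higher, with a median of -1.88. Regions at the 5′ end lay more often far from Igkc, where a smaller share of regions fell. Most Igkv4 regions were at the 3′ end. End, position and family therefore cannot be told apart in these counts. An octamer lay within 150 bp upstream of the gene in 14 of the 22 regions at the 5′ end. A complete signal of heptamer, 12 bp and nonamer was found 19 times among all members, each time in the Igk V block, and in 15 of the 34 regions at the 3′ end. Only these exact letters of heptamer and nonamer were counted, so that regions without a match may still hold a signal. In the central 300 bp, the heptamer was in 31.1% of the V block regions, the nonamer in 16.4% and the octamer in 30.3%. The octamer stretch downstream of Igkv4-57 shown above was found letter for letter beside 8 Igkv4 genes, so that reads there may not be told apart between genes.

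Both ends of a gene could behave alike or differ. At Igkv12-44, chr6:69764333-69764892 at the 3′ end averaged 9.04, 3.60 and 0.572 RPPM, and chr6:69764908-69765411 at the 5′ end averaged 7.85, 3.37 and 0.572. Both were called lower in BMPC_C, with log2 fold changes of -2.66 and -2.51. At Igkv4-78, chr6:69009433-69009795 at the 3′ end measured 5.60, 4.14 and 3.35 RPPM in nB_C and 0.650, 0.730 and 0.467 in BMPC_C, with a log2 fold change of -1.71 (adjusted p = 4.5e-05). The 5′ end, chr6:69010005-69010569, measured 3.41, 1.88 and 1.12 RPPM in nB_C and 3.12, 2.19 and 2.80 in BMPC_C, which overlapped, with a log2 fold change of 0.30 (adjusted p = 0.54, SE 0.39). These genes were chosen as examples after their values were seen, and the difference between ends was not tested.

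Around Igkc, which encodes the kappa constant domain, accessibility was highest in BMPC. The region chr6:70675533-70678462 (2930 bp) covers Igkc and the J-C intron with its enhancer. It measured 97.2, 80.3 and 80.0 RPPM in nB_C, 48.4 and 43.1 in GCB_C and 104, 138 and 145 in BMPC_C. The cell types did not overlap, and the log2 fold change was 1.46 (SE 0.17, adjusted p = 4.5e-08) from GCB_C to BMPC_C. Against nB_C it was -0.89 in GCB_C (adjusted p = 0.00011) and 0.57 in BMPC_C (adjusted p = 0.0020), both under the 2-fold limit.

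Further 3′, in the stretch that holds the kappa 3′ enhancers, chr6:70685207-70686151 averaged 51.3, 35.9 and 53.0 RPPM and chr6:70693713-70694604 averaged 41.4, 37.8 and 64.9 in nB_C, GCB_C and BMPC_C, and neither was called between cell types in C. In KO the means were 51.6, 27.8 and 56.1 RPPM for the former and 44.4, 25.1 and 64.5 for the latter, and both were called higher in BMPC_KO than in GCB_KO, with log2 fold changes of 1.01 (adjusted p = 4.6e-06) and 1.33 (adjusted p = 1.2e-09). The next region, chr6:70697699-70698128, opened in BMPC: it measured 2.44, 2.07 and 0.558 RPPM in nB_C, 4.84 and 2.81 in GCB_C and 17.9, 27.4 and 21.0 in BMPC_C. BMPC_KO measured 20.3 and 22.4 RPPM, and all BMPC libraries lay above all others. The log2 fold change was 3.16 (SE 0.31, adjusted p = 1.4e-09) from nB_C and 2.27 (SE 0.35, adjusted p = 4.1e-06) from GCB_C. Per length it stood at 51.4 RPPM per kb in BMPC_C, beside 56.1 for chr6:70685207-70686151 and 72.7 for chr6:70693713-70694604, and at 3.93, 54.2 and 46.4 in nB_C. In contrast, the distal chr6:70703839-70704323 and chr6:70712578-70713076 fell in BMPC_C, from 13.7 to 3.15 RPPM and from 11.8 to 4.81, with log2 fold changes of -1.85 (adjusted p = 3.9e-08) and -1.14 (adjusted p = 1.2e-05). From nB_KO to BMPC_KO these were -0.82 and 0.06, and neither was called. Between the last V segment and J, chr6:70659246-70659983 averaged 43.0, 20.7 and 13.8 RPPM and was called lower in both, and without GCB_C replicate 2 the fall to GCB_C was 0.64 on the log2 scale and not called.

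In Igl, the summed accessibility of the lambda gene interval was lowest in GCB. Of its 36 regions, none were higher and 18 lower in GCB_C than in nB_C, against 14.2% and 8.47% of all regions. In BMPC_C 2 were higher and 18 lower, against 18% and 20.1% of all regions. The summed level was 668.7, 606.1 and 606.0 RPPM in nB_C, 320.6 and 288.1 in GCB_C and 421.8, 484.6 and 474.4 in BMPC_C. The cell types did not overlap. The median log2 fold change was -1.04 to GCB_C and -0.99 to BMPC_C. It was 0.27 from GCB_C to BMPC_C, with 5 higher and 3 lower, against 11.3% and 19.1% of all regions.

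The regions over Iglc2 and Iglc3, constant genes of the lambda chain, were lower in GCB and were not called between nB and BMPC, while Iglc1 was not placed in mm9 here and was given no region. At Iglc2, chr16:19200014-19200931 measured 32.6, 32.6 and 26.8 RPPM in nB_C, 7.92 and 5.15 in GCB_C and 21.8, 30.7 and 33.5 in BMPC_C. At Iglc3, chr16:19066928-19067649 measured 23.9, 21.1 and 21.8 RPPM in nB_C, 5.28 and 5.15 in GCB_C and 26.3, 34.1 and 26.3 in BMPC_C. In GCB_KO the first measured 1.10 to 4.46 RPPM and the second 3.30 to 4.82, so that all 6 GCB libraries lay below all others at both. The log2 fold change to GCB_C was -2.09 (SE 0.27, adjusted p = 6.2e-07) and -1.90 (SE 0.20, adjusted p = 2.2e-08), and to BMPC_C it was -0.11 (SE 0.24) and 0.35 (SE 0.18), neither called. The pair are copies, identical at 79.2% of 519 positions.

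The other pair of copies, shown above by sequence, are identical at 85.8% of 1163 positions. The middle copy, chr16:19178914-19180344, had the highest level in the interval, with 95.7, 82.5 and 89.0 RPPM in nB_C, 57.6 and 63.2 in GCB_C and 63.5, 63.1 and 68.4 in BMPC_C. The Hira-side copy, chr16:19026857-19028001, measured 23.4, 25.4 and 25.7 RPPM in nB_C, 27.3 and 29.0 in GCB_C and 49.6, 57.5 and 60.1 in BMPC_C. Thus BMPC_C libraries lay below nB_C at the middle copy and above nB_C at the Hira-side copy. From nB_C to BMPC_C the log2 fold change was -0.45 (SE 0.10, adjusted p = 0.00055, under the 2-fold limit) at the middle copy and 1.13 (SE 0.15, adjusted p = 2.3e-07) at the Hira-side copy, and the difference between copies was not tested. Per length they stood at 62.2 and 21.7 RPPM per kb in nB_C and at 45.4 and 48.7 in BMPC_C. The nearby chr16:19059733-19060398, 4929 bp beyond the 3′ end of Iglc3, on the side where RefSeq (GRCm38.p6) has Iglc1, also rose in BMPC_C, to 22.2, 24.6 and 25.4 RPPM from 7.31, 5.65 and 5.96 in nB_C, with a log2 fold change of 1.78 (adjusted p = 3.4e-06, SE 0.28). The region chr16:19052807-19053433 fell, averaging 27.9, 13.8 and 5.68 RPPM, with a log2 fold change of -2.15 (adjusted p = 1.8e-08) to BMPC_C. Near Iglv3, chr16:19235168-19235555 averaged 18.6, 2.27 and 4.06 RPPM, with a log2 fold change of -2.57 (adjusted p = 2.3e-07) to GCB_C.

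**Figure D4:**
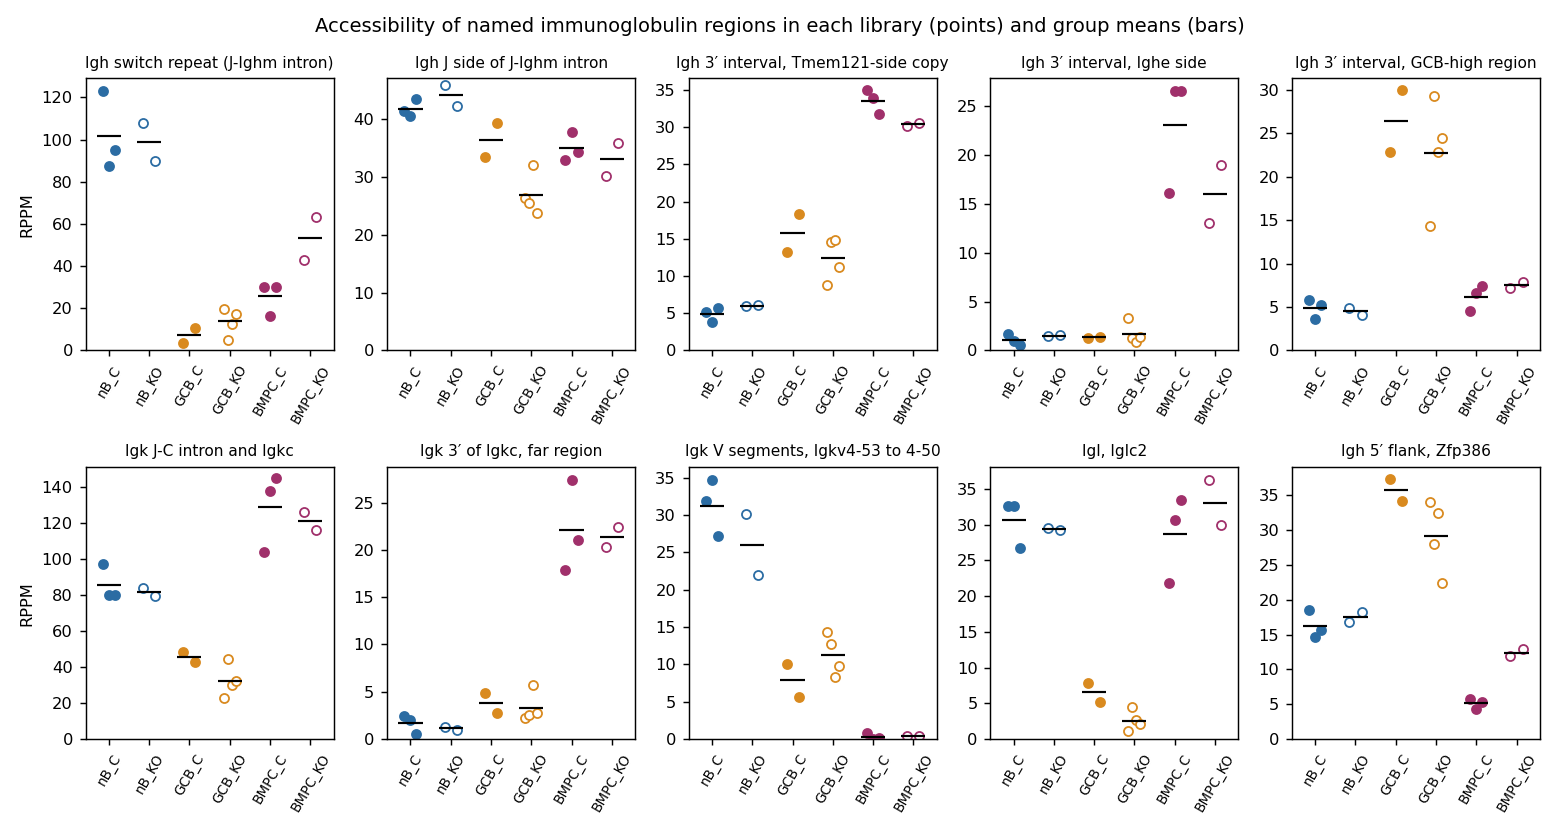
RPPM of 10 named regions in each library, with filled points for C and open points for KO, and a black bar at the mean of each group. The switch repeat falls in GCB and BMPC, the region farther 3′ of Igkc and the Ighe-side region rise in BMPC, Iglc2 falls in GCB, and Zfp386 is higher in BMPC_KO than in BMPC_C.

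In the flanks of all loci, 22 of 133 regions (16.5%) were higher and 13 (9.77%) lower in GCB_C than in nB_C, near the 14.2% and 8.47% of all regions. In BMPC_C 22 (16.5%) were higher and 31 (23.3%) lower than in nB_C, near the 18% and 20.1% of all regions, with a median log2 fold change of 0.21 to GCB_C and -0.04 to BMPC_C. From GCB_C to BMPC_C 13 were higher (9.77%) and 37 lower (27.8%), against 11.3% and 19.1% of all regions. In the gene intervals, 11 of 225 were higher and 54 lower in GCB_C, and 12 higher and 129 lower in BMPC_C, with a median of -0.71 and -1.27. Single flanks varied. In the Igh 3′ flank, which held 48 regions, 4 were higher and 6 lower than in nB_C both in GCB_C and in BMPC_C. In the Igh 5′ flank, 7 of 21 regions were higher and none lower in GCB_C than in nB_C, and 6 were higher and 6 lower in BMPC_C. In the Igk 5′ flank, none of 13 was higher and 6 were lower in BMPC_C than in nB_C, with a median log2 fold change of -0.90, and in the Igl flank on the side of Hira, 6 of 13 were higher and none lower. In the flank beyond the lambda V genes, all 10 regions were lower in BMPC_C, and their summed level averaged 107.1 ± 8.7 RPPM in nB_C, 41.5 ± 1.7 in GCB_C and 9.0 ± 2.8 in BMPC_C. There, chr16:19761525-19762208 in B3gnt5, a glycosyltransferase gene, measured 33.6, 25.4 and 29.6 RPPM in nB_C and 1.56, 1.46 and 1.40 in BMPC_C, with a log2 fold change of -3.62 (adjusted p = 5.7e-13, SE 0.24). The largest increase was at chr12:117682632-117683361 in Ncapg2, a condensin subunit gene, which averaged 0.369, 2.26 and 26.4 RPPM, with a log2 fold change of 4.35 (adjusted p = 1.6e-13, SE 0.27) to BMPC_C. At Igk, chr6:70780270-70781734, between Rpia and Eif2ak3, which encodes the endoplasmic reticulum stress kinase PERK, averaged 3.74, 13.4 and 46.1 RPPM, with a log2 fold change of 3.31 (adjusted p = 6.4e-14, SE 0.20).

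Calls between cell types are given for each genotype, and the share made in both was not counted over all regions. In KO libraries, 37 regions at Igh, 41 at Igk and 28 at Igl were called from nB to GCB, where 26.3% of all regions were called. C had 37, 36 and 27 calls, of which 28, 24 and 20 were shared with KO in direction. From nB to BMPC, 49, 86 and 28 were called in KO, against 35.3% of all regions, of which 41, 81 and 27 were shared with the 51, 107 and 36 calls in C. From GCB to BMPC, 43, 82 and 21 were called in KO, against 32% of all regions, of which 35, 62 and 15 were shared with the 40, 76 and 20 calls in C. None were called in opposite directions.

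Between genotypes, 1 of the 358 members was called. In nB no member was called by limma and 0% of all regions were, and in GCB no member was called while 0.0317% of all regions were. At an unadjusted p under 0.05, 1 member was higher and 3 lower in nB_KO, or 0.279% and 0.838%, against 0.63% and 1.04% of all regions. In GCB_KO 34 were higher and 14 lower, or 9.50% and 3.91%, near the 7.45% and 4.34% of all regions. Neither count test of edgeR (quasi-likelihood or likelihood ratio) nor DESeq2 called a member in nB or GCB. Of all 66177 regions these tools called 7, 10 and 1 in nB and 1, 12 and 0 in GCB. In BMPC, limma called 1 member, against 0.104% of all regions, with 22 higher and 5 lower at an unadjusted p under 0.05, or 6.15% and 1.40%, against 6.96% and 2.59% of all regions. Interactions of genotype with cell type gave no called member and 0% of all regions for each of the 3 pairs of cell types by limma, the only tool run on them. At an unadjusted p under 0.05, 18 members (5.03%) were higher and 1 (0.279%) lower for BMPC against nB, where 3.95% and 1.30% of all regions were. For BMPC against GCB 20 (5.59%) were higher and 11 (3.07%) lower, against 4.63% and 3.70% of all regions, and for GCB against nB 19 (5.31%) and 9 (2.51%), against 4.15% and 2.06%. No marker of other cells was called between genotypes in GCB. The region near Hbb-b1, a beta globin gene, measured 0.937 and 1.32 RPPM in GCB_C and between 8.81 and 29.9 in GCB_KO, with a log2 fold change of 2.92 (limma adjusted p = 0.042, not called). The summed myeloid markers were at 14.5 and 10.8 RPPM in GCB_C and between 15.4 and 21.9 in GCB_KO, and the summed erythroid markers, which overlapped, at 29.0 and 38.4 and between 37.4 and 61.7. Their part in the comparison of genotypes was not tested.

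The called region was chr12:117292733-117293335 within Zfp386, a zinc finger gene in the Igh 5′ flank. It measured 5.72, 4.38 and 5.29 RPPM in BMPC_C and 11.9 and 12.9 in BMPC_KO. It stood at 18.5, 14.7 and 15.6 RPPM in nB_C, and thus fell from nB to BMPC in C to below the level of KO. The log2 fold change was 1.13 (SE 0.20, limma adjusted p = 0.0051), and it was higher in 2 of 2 KO libraries. Without BMPC_C replicate 2 or 3 it was not called, at a log2 fold change of 1.04 and 1.15. It also lost the call without either BMPC_KO replicate, at 1.18 and 1.08, where the spread came from the other groups. It was also not called by limma with BMPC_C and BMPC_KO alone in the fit (adjusted p = 0.013), with no variance trend (adjusted p = 0.029), with quantile normalization (adjusted p = 0.045) or with a pseudocount of 5 RPPM (log2 fold change 0.78), and the fit of these groups alone called Igkv14-126 in its place. It was called by edgeR's quasi-likelihood test (adjusted p = 0.00012).

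The count tests called more regions in BMPC. The quasi-likelihood test of edgeR called 9 members, all higher in KO, against 1.45% of all regions higher. The likelihood ratio test called 14, of which 13 were higher, against 2.01%, and DESeq2 called 4, all higher, against 0.618%. The 9 comprised Ahnak2 (chr12:114031943-114032510) and 2 regions of Pacs2 in the Igh 3′ flank, Ighv11-2 (chr12:115287041-115287529), Zfp386, the Igkv14-126, Igkv12-89 and chr6:69097504-69097734 regions in the Igk V block, and chr6:70712578-70713076 downstream of Igkc. At Igkv14-126, chr6:67845768-67846597 measured 3.38, 1.82 and 1.56 RPPM in BMPC_C and 9.96 and 11.2 in BMPC_KO, with a log2 fold change of 1.87 (adjusted p = 0.061 by limma, 0.0073 by limma with these groups alone and 1.6e-05 by the quasi-likelihood test of edgeR). In nB_C it had 2.68, 1.32 and 2.05 RPPM, below BMPC_KO. Downstream of Igkc, chr6:70712578-70713076 measured 4.81, 5.11 and 4.52 RPPM in BMPC_C and 10.2 and 10.3 in BMPC_KO, beside 11.9, 12.2 and 11.4 in nB_C, with a limma adjusted p of 0.031. At Igkv12-89, BMPC_C had 0.910, 0.182 and 0.467 RPPM and BMPC_KO 3.40 and 3.17, beside a mean of 7.76 in nB_C. At Ighv11-2, BMPC_C had 0.650, 0.182 and 0 RPPM and BMPC_KO 2.07 and 4.48. The floor of 3 reads was 0.390, 0.547 and 0.467 RPPM in BMPC_C, so that the first value lay above it and the others below. The BMPC_KO values lay above it, since it was 0.364 and 0.560 RPPM in these libraries.

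Summed over the Igk V block, both BMPC_KO libraries lay above all BMPC_C libraries, at 226.7 ± 12.3 RPPM (SD, n = 2) against 148.9 ± 8.1 (n = 3). For the heavy chain V block the means were 27.3 ± 0.6 and 23.9 ± 8.5 RPPM, and for the lambda gene interval 458.1 ± 40.2 and 460.3 ± 33.7, which overlapped. At the switch repeat, both BMPC_KO libraries lay above BMPC_C, with a log2 fold change of 1.05 (limma adjusted p = 0.22, SE 0.36) that was not called. These sums carry no test.

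**Figure D5:**
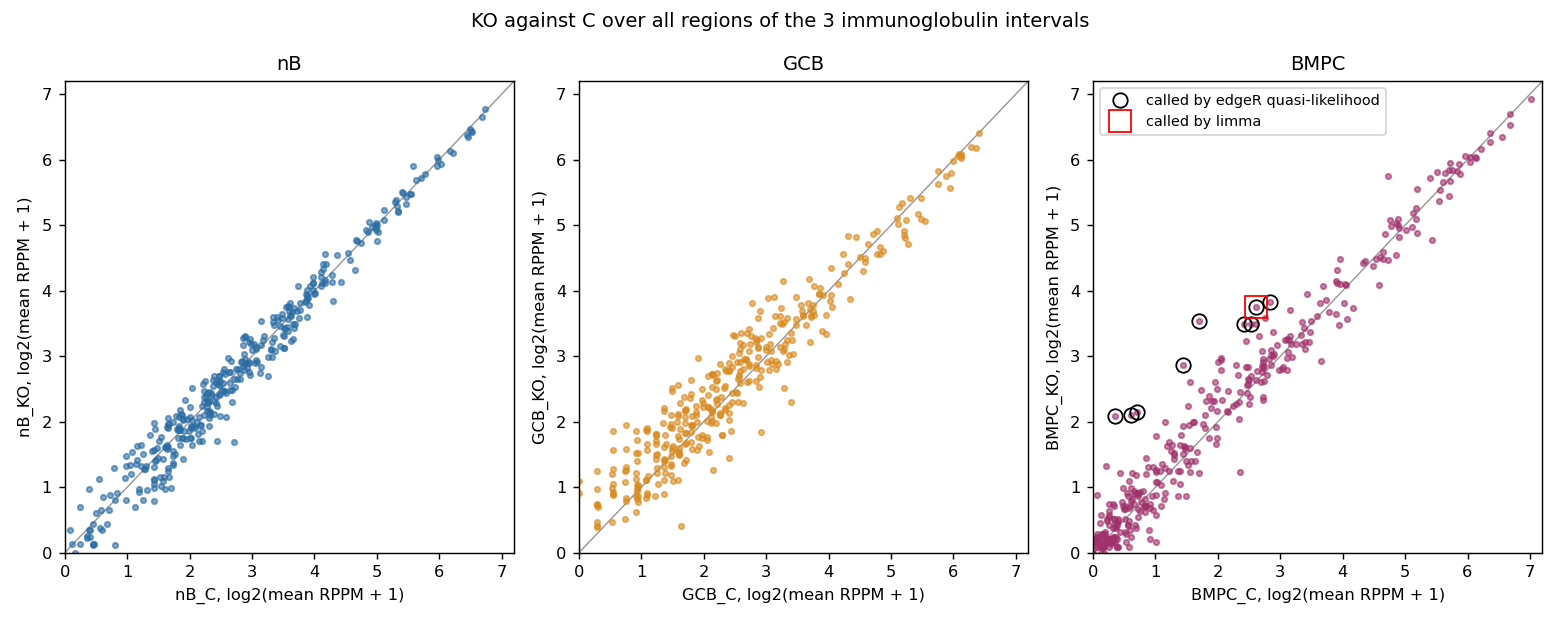
Mean accessibility of each of the 358 regions in KO against C, as log2(mean RPPM + 1), in nB, GCB and BMPC, with the line of equality. In BMPC, the 9 regions called by edgeR's quasi-likelihood test (circles) and the 1 called by limma (square) all lie above the line, and no region is marked in nB or GCB.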

How the data were processed

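The authors aligned reads against mm9 (Bowtie), joined the peaks that MACS2 found per library into 1 set of regions, left out 1 sample for its share of reads in peaks, and deposited the reads of each region as RPM over the reads in regions (RPPM here). Default alignment options were used, but the sources name different Bowtie versions, so the treatment of reads with several matches was not settled. The table's columns of the authors' own edgeR comparisons (fold changes, p-values and FDR) were not used. Whole reads were recovered from 100% of values (tolerance 0.001). Genes and sequences came from NCBIM37 with GENCODE vM1.

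Log2(RPPM + 1) was fitted with limma 3.58.1 in R 4.3.3, with 1 mean for each of 6 groups over 16 libraries and a variance trend, and adjusted by Benjamini-Hochberg over 66177 regions. The fit was tested on simulated data. Recovered reads were tested with edgeR 4.0.16 and DESeq2 1.42.0 as alternatives. Other alternatives were pseudocounts, a filter on low values, scalings, adjusted p limits, a fit of the compared groups, no trend, a replicate block and each library left out. Named regions were the 3 highest of each locus in each cell type, the 5 largest increases and decreases from nB_C to BMPC_C and the 3 from nB_C to GCB_C without overlap, all members called between genotypes, and regions of the constant gene blocks with a mean of at least 5 RPPM in any group. For the largest increases and decreases, no overlap between the compared libraries was a condition of naming. A further 7 regions, the composite motif, the split by V gene end, the copies and the distance bins were chosen after the values were seen. Some markers and 1 sequence are not reported here. Members and lists were chosen with earlier results of these data known. Alignments used Biopython 1.88.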

Additional observations from a re-analysis of the deposited data

Results flagged for a closer look

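In GCB_KO, the only group of 4 libraries, 1 library stood apart from the other 3 in 6 of 97 named regions by Dixon's test at its 95% critical value, and chance alone gives about 1 in 20. In the Igh 3′ flank, chr12:114406072-114406980 was lowest in replicate 2, at 50.9 RPPM. In the Igh 3′ enhancer interval, chr12:114491937-114492509 was highest in replicate 1, at 15.4 RPPM against 9.55, 10.1 and 10.5. In the Igk V block, chr6:68926425-68926784 was highest in replicate 4, at 4.19 RPPM, chr6:69086611-69087243 was lowest in replicate 2, at 3.82 RPPM, and chr6:69612395-69613026 was lowest in replicate 3, at 7.01 RPPM against 13.2, 13.4 and 14.0. In the Igl flank, chr16:18963561-18964055 in Hira was highest in replicate 1, at 18.7 RPPM. Replicate 1 had the fewest reads of all libraries, 907959, and 1 read was worth 1.10 RPPM there.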

How the results depend on the processing

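A pseudocount of 5 RPPM lowered the counts of called regions from nB to GCB to 18 at Igh, 8 at Igk and 16 at Igl, from nB to BMPC to 30, 33 and 16, and from GCB to BMPC to 20, 15 and 9, since it shrinks changes of low regions. A pseudocount of 0.1 RPPM gave 21 from nB to GCB at Igk. Between genotypes in BMPC, the 1 call became 0 with a pseudocount of 5 RPPM, with quantile normalization or with no trend, 2 at an adjusted p of at most 0.05, 9 with edgeR's quasi-likelihood test, 14 with its likelihood ratio test and 4 with DESeq2. With the compared groups alone it was 1, at another region. The cause was not tested. Leaving out each library in turn gave, from nB to GCB, 24 to 39 calls at Igh, 18 to 40 at Igk and 22 to 28 at Igl, from nB to BMPC 46 to 53, 96 to 111 and 32 to 37, from GCB to BMPC 30 to 43, 47 to 84 and 16 to 22, and between genotypes 0 in nB, 0 in GCB and 0 to 1 in BMPC, with 0 without BMPC_C replicate 2 or 3 and without either BMPC_KO replicate. Of 10470 alternative values of named regions, 10248 kept the side of the threshold, 143 lost the call and 79 gained it. None reversed direction where the main or the alternative fit made a call. Direction was not compared where neither made one. Quantile normalization moved the median log2 fold change of all regions by -0.193 from nB_C to GCB_C and by 0.25 from GCB_C to BMPC_C. With the pool name of GCB as a replicate block, limma called 0 members and 9 regions of all between genotypes. F2 and M1 name GCB pools of C and of KO, but the labels do not say that they pair samples, and the deviations correlated at 0.036 and 0.064. GCB depth limits low regions most.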
